A study of Homo sapiens with 3 samples.

Results

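The genes described here encode Aldh1a enzymes, which include retinaldehyde dehydrogenases, and nuclear receptors for retinoids, in AB12 cells, a mouse malignant mesothelioma cell line. They were taken by symbol from a list of 8 genes, and 7 of these were found among the 13936 genes of the deposited table: Aldh1a1, Aldh1a3, Aldh1a7, Rara, Rarg, Rxra and Rxrb. The remaining name, Rarb, was not analysed here. The genes were chosen with their scaled counts in shNF2 and shSC already known. Aldh1a1 and Aldh1a3 were selected on the opposite sign of their fold changes. The values of all 7 in that comparison are therefore a description, and nothing is read from a test of them.

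There were 3 RNA libraries, 2 from AB12 cells labelled shNF2 and 1 from AB12 cells labelled shSC, which is taken as the control hairpin. The deposited columns are also labelled AB12WT for shSC and AB12KD for both shNF2 libraries. The shNF2 libraries are named after the numbers in their titles, library 20 and library 21. What these numbers denote, and whether the cultures were separate, is not stated in the labels. A p-value here therefore speaks for these few libraries alone. It rests on the spread between libraries 20 and 21, which may be technical, and on a variance borrowed from all genes. Cells of every library were grown in RPMI with 10% serum. Although the organism is labelled as human, the table lists mouse Ensembl identifiers, and the values were read as mouse.

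Retinoic acid is made from vitamin A in a pair of oxidation steps. Retinol is turned into retinaldehyde by retinol dehydrogenases, and retinaldehyde into retinoic acid by enzymes of the Aldh1a family. Retinoic acid binds the RAR receptors, which sit on DNA as pairs with an RXR receptor and switch target genes on or off, and the Cyp26 enzymes break retinoic acid down. In embryos the mesothelium is a known site of retinoic acid synthesis, largely through Aldh1a2.

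Nf2, which encodes merlin and is the gene named by the shNF2 label, had 486 and 458 scaled counts in libraries 20 and 21, against 1539 in shSC. The libraries held 25837151 and 26829163 reads in genes for libraries 20 and 21, against 29532600 for shSC. Of 11 mesothelial markers 5 were analysed here, led by Krt18, Krt8 and Msln, with summed scaled counts of 39947 and 33759 in libraries 20 and 21, against 43900 in shSC. The mesothelial markers Wt1, Upk3b and Calb2 had no row among the genes used here. Of 10 macrophage markers 4 were analysed, led by Mrc1, and summed to 8559 and 8070 in libraries 20 and 21, against 9307 in shSC, while Adgre1, Csf1r and C1qa had no row. Of 10 fibroblast markers 3 were analysed, with sums of 22.0 and 90.4 in libraries 20 and 21, against 14.6 in shSC. Acta2 led them in library 21, and Pdgfra in library 20 and shSC. Col1a1, Col1a2, Dcn, Lum, Pdgfrb, Thy1 and Postn had no row. Of the 6 endothelial and 7 lymphocyte markers there were 0. The part of these cell types in the results below was not tested.

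Aldh1a1, an enzyme that oxidises retinaldehyde to retinoic acid, was several times higher in shNF2. Its scaled count was 3188 in library 20 (exact 95% counting interval 3076 to 3304) and 8594 in library 21 (8416 to 8776), against 834 in shSC (779 to 892). The intervals cover counting error only, and none of the 3 overlap. The ratio to shSC was 3.82 in library 20 (95% counting interval 3.54 to 4.13) and 10.3 in library 21 (9.60 to 11.1). The fitted log2 fold change over both libraries was 2.65 ± 0.40 (SE), the 19th highest of 12813 genes tested. Libraries 20 and 21 alone were at 1.93 and 3.36. The SE, like the others given here, leans on the variance of all genes and is not the spread of this gene alone. For Aldh1a1 it was 0.60 with an untrended variance and 0.73 with robust moderation. In RNA from whole cultures, a change in the number of cells that express a gene and a change in the amount of RNA per cell cannot be told apart.

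Aldh1a3, which catalyses the same step and is known from the embryonic eye and nose, went the other way and lay below shSC in each shNF2 library. The scaled count was 48.1 in library 20 (35.2 to 64.2) and 59.3 in library 21 (45.4 to 76.2), against 460 in shSC (419 to 503). The shNF2 libraries overlap each other and lie far below shSC. The level was 9.55-fold lower in library 20 than in shSC and 7.75-fold lower in library 21, with ratios of 0.105 (0.0756 to 0.142) and 0.129 (0.0971 to 0.169). The fitted log2 fold change was -3.08 ± 0.35 (SE), the 11th lowest of the genes tested.

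Aldh1a7 is a rodent copy of Aldh1a1 that lies close to it in sequence, so reads can be split between them in a way that depends on the authors' counting, and its values are uncertain. It had 24.1 scaled counts in library 20 (15.3 to 36.1) and 62.2 in library 21 (47.9 to 79.4), against 26.3 in shSC (17.3 to 38.2). Library 21 stood above the other two, which overlapped. There were 0.755 and 0.724 Aldh1a7 reads for every 100 Aldh1a1 reads in libraries 20 and 21, against 3.15 in shSC. Aldh1a7 therefore kept a near-equal proportion to Aldh1a1 in both shNF2 libraries and a higher one in shSC. Whether its product acts on retinaldehyde was not examined here.

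**Figure D1:**
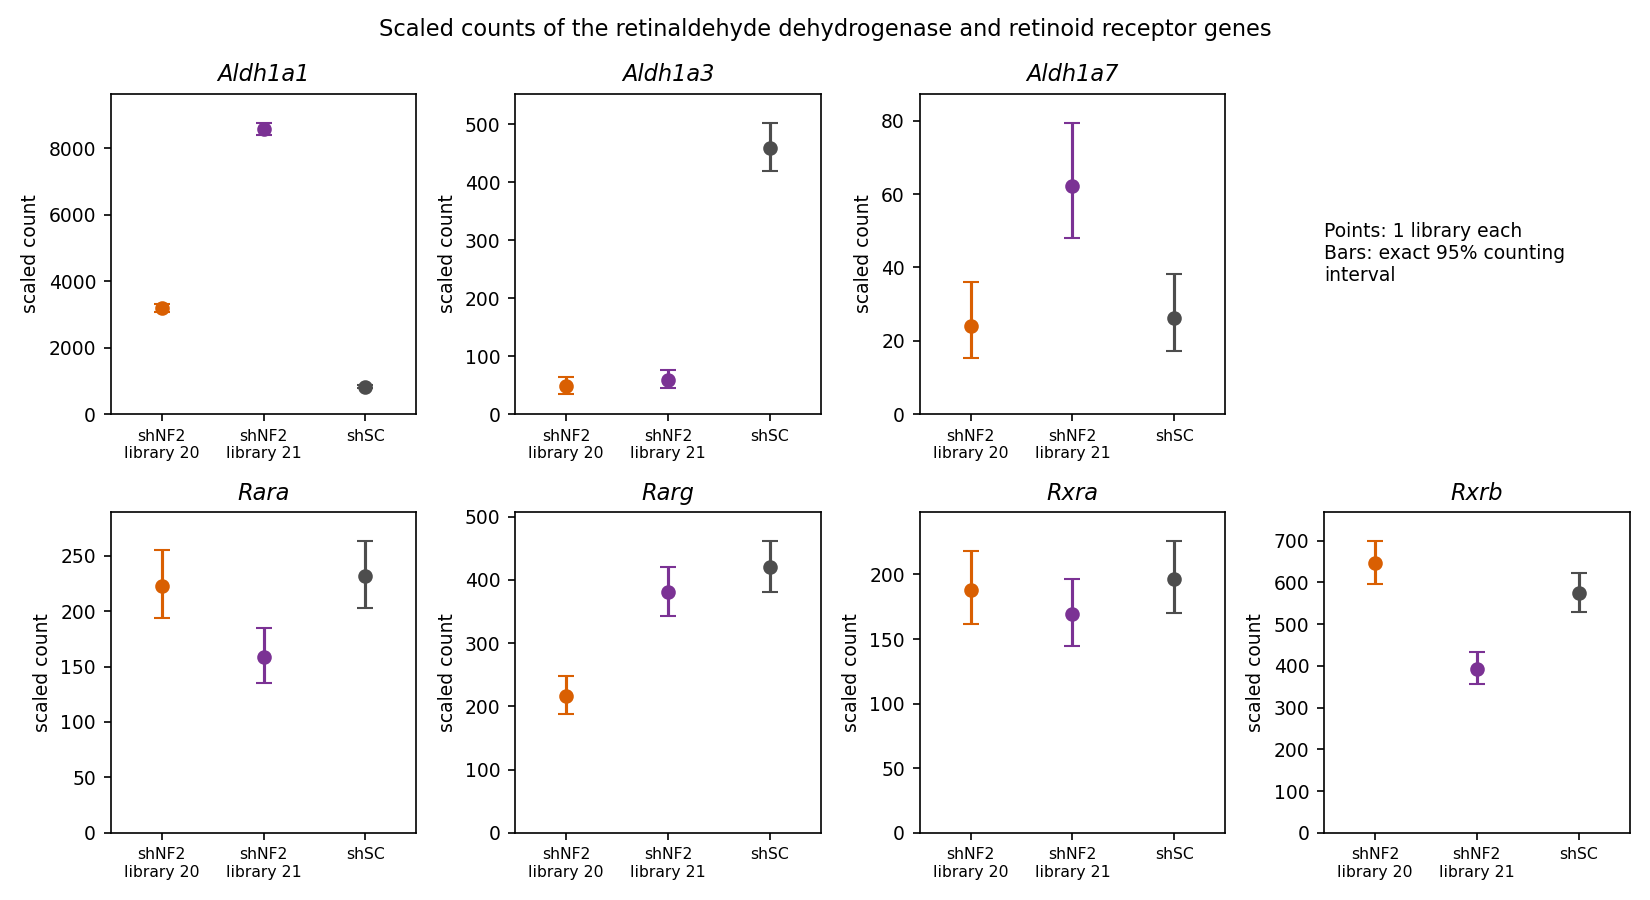
Scaled counts (linear axes from 0) of the 7 genes in shNF2 library 20, shNF2 library 21 and shSC; each point is 1 library and each bar its exact 95% counting interval. Aldh1a1 is highest in library 21 at 8594 and lowest in shSC at 834, Aldh1a3 is highest in shSC at 460, and the 4 receptors stay between 158 and 645.

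Summed over the 3 Aldh1a genes, transcript was higher in shNF2 although Aldh1a3 was lower. The sum weighs the 3 genes alike and is of RNA only. Protein, enzyme activity and retinoic acid were not measured in these libraries, so it does not give the capacity to make retinoic acid. The sum was 3261 scaled counts in library 20 (95% counting interval 3147 to 3377) and 8716 in library 21 (8536 to 8898), against 1320 in shSC (1251 to 1392). These totals were 2.47-fold (2.32 to 2.63) and 6.60-fold (6.23 to 6.99) that of shSC. The mean of both shNF2 libraries was 4.54-fold that of shSC, with an SD of 2.92 between the 2 library folds. The gain in Aldh1a1 exceeded the loss of Aldh1a3 in both libraries. Library 20 had 2354 more scaled counts of Aldh1a1 than shSC and 411 fewer of Aldh1a3 (a difference of -411), a gain 5.72 times the loss. Library 21 had 7760 more of Aldh1a1 and a difference of -400.3 in Aldh1a3, a gain 19.4 times the loss.

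The make-up of the sum also differed. Aldh1a1 held 97.8% of Aldh1a reads in library 20 (exact 95% binomial interval 97.2 to 98.3%) and 98.6% in library 21 (98.3 to 98.8%), against 63.2% in shSC (60.6 to 65.8%). Aldh1a3 held 1.48% (1.08 to 1.96%) and 0.68% (0.52 to 0.87%) in libraries 20 and 21, against 34.8% in shSC (32.3 to 37.4%). The Aldh1a1 to Aldh1a3 read ratio was 66.3 in library 20 and 145 in library 21, against 1.82 in shSC. These shares are of reads and are not corrected for transcript length.

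**Figure D2:**
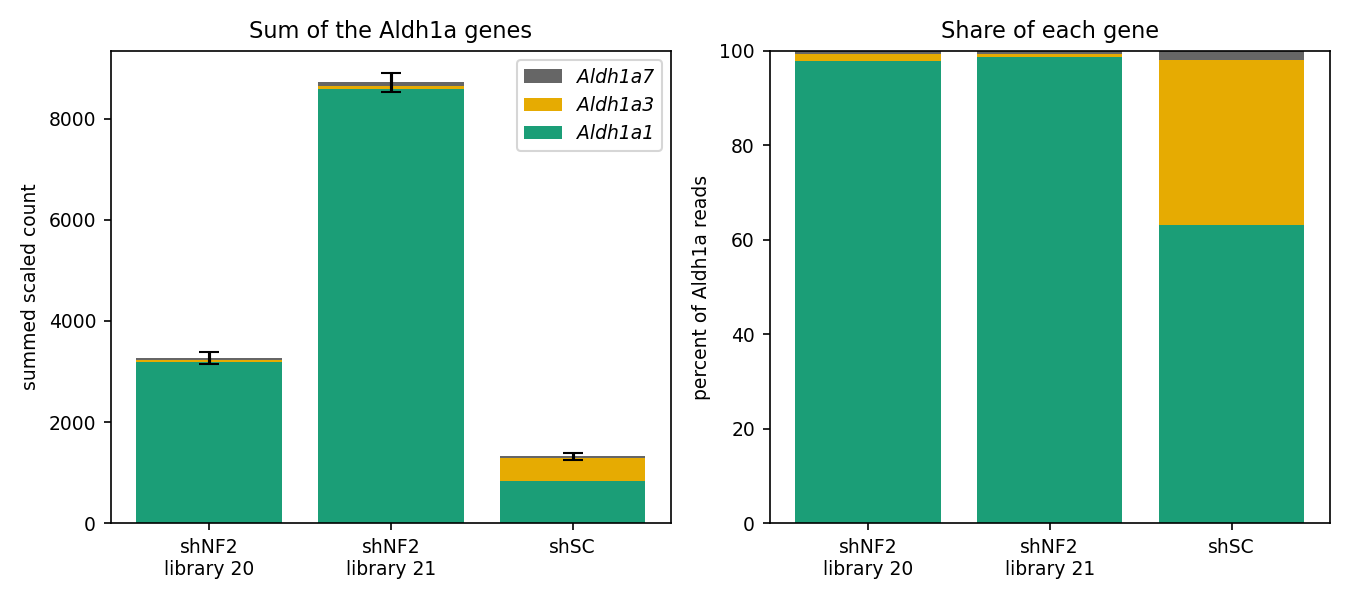
Left, the sum of scaled counts of Aldh1a1, Aldh1a3 and Aldh1a7 in shNF2 library 20, shNF2 library 21 and shSC, with the exact 95% counting interval of the sum; right, the percent of Aldh1a reads from each gene. The sum is 3261 and 8716 in libraries 20 and 21, against 1320 in shSC, and Aldh1a3 takes 34.8% of Aldh1a reads in shSC, against 1.48% and 0.68% in libraries 20 and 21.

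No mouse gene lengths were used, so levels of different genes were set side by side per kb of the longest human coding sequence of the same symbol (1503 bases for Aldh1a1, 1536 for Aldh1a3, and that of Aldh1a1 for Aldh1a7). On that scale Aldh1a1 had 2121 and 5718 scaled counts per kb in libraries 20 and 21, against 555 in shSC. Aldh1a3 had 31.3 and 38.6 per kb in libraries 20 and 21, against 299 in shSC. Coding length leaves out untranslated regions, so comparisons between genes on this scale are not corrected for full transcript length. In shSC the order per kb was Aldh1a1, Rxrb (356), Rarg (308), Aldh1a3, Rara (162), Rxra (142) and Aldh1a7 (17.5). Rarg and Aldh1a3 were neighbours there at 308 and 299, and Rara and Rxra at 162 and 142; with 1 shSC library their order has no replicate check. In both shNF2 libraries Aldh1a3 lay below each of the 4 receptors, among which the lowest values were 136 for Rxra in library 20 and 110 for Rara in library 21.

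The 4 receptors lay closer to shSC than Aldh1a1 and Aldh1a3 did, and for 3 of them the shNF2 libraries differed from each other beyond counting error. By the same measure 54.3% of all genes differed between these libraries, so nothing particular to the receptors is read from that count. Rarg, the RAR subtype best known from skin and cartilage, had 217 scaled counts in library 20 (188 to 248) and 380 in library 21 (343 to 420), against 420 in shSC (381 to 461). Library 20 lay clear below the other two, which overlapped. The ratio to shSC was 0.516 in library 20 (0.435 to 0.610) and 0.906 in library 21 (0.788 to 1.04).

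Rara, the most widely expressed RAR, had 223 scaled counts in library 20 (194 to 255) and 158 in library 21 (135 to 185), against 232 in shSC (203 to 263). Here it was library 21 that lay below, with a ratio to shSC of 0.684 (0.557 to 0.838), while that of library 20 was 0.962 (0.795 to 1.16). Summed, Rara and Rarg were at 0.674 of shSC in library 20 (0.596 to 0.763) and at 0.827 in library 21 (0.737 to 0.927). In library 21 the GC content of the transcripts moved with these values: less the median of genes of like GC, described below, the log2 value there was -0.23 for Rara and 0.04 for Rarg. The part of GC content in the library 21 sum was not tested.

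Rxrb, a partner receptor shared by RARs and many other nuclear receptors, had 645 scaled counts in library 20 (595 to 698) and 393 in library 21 (355 to 433), against 573 in shSC (528 to 622). The shNF2 libraries lay on opposite sides of shSC, with ratios of 1.13 (1.004 to 1.26) and 0.685 (0.602 to 0.778). Rxra had 188 and 169 scaled counts in libraries 20 and 21, against 197 in shSC, and all 3 counting intervals overlapped. Its ratios to shSC were 0.957 (0.779 to 1.18) and 0.860 (0.698 to 1.06), so a difference was not detectable at this depth. Summed, Rxra and Rxrb were at 1.08 of shSC in library 20 (0.980 to 1.20) and at 0.729 in library 21 (0.654 to 0.813). The sum of all 4 receptors was at 0.896 of shSC in library 20 (0.829 to 0.967) and at 0.774 in library 21 (0.716 to 0.837), before any adjustment for GC content.

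By counting intervals alone, 4 of the 7 genes differed from shSC in library 20, where 54.7% of all genes did, and 5 of the 7 in library 21, where 61.1% did. The fitted log2 fold changes over both libraries were -0.55 ± 0.33 (SE) for Rarg, -0.30 ± 0.32 for Rara, -0.19 ± 0.30 for Rxrb, -0.14 ± 0.31 for Rxra and 0.54 ± 0.57 for Aldh1a7. In the fit across all genes (limma, adjusted p under 0.05) 1 of the 7 genes was called higher, Aldh1a1, where 0.414% of all genes were, and 1 was called lower, Aldh1a3, where 0.429% were. Since both were chosen with this comparison known, nothing is read from that count, from their ranks or from the settings that keep the calls. Both calls were lost under quantile normalization and with an untrended variance, and that of Aldh1a1 also with DESeq2 and with robust moderation.

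Library 21 stood apart from shSC in relation to GC content, and the receptor genes are GC-rich. With human transcripts as stand-ins, genes in the lowest eighth by GC had a median log2 fold change of 0.19 for library 21, and those in the highest eighth one of -0.31; for library 20 these medians were 0.02 and -0.05. Rara and Rxra fell in the highest eighth and Rarg and Rxrb in the seventh, with stand-in GC of 62.2, 66.7, 60.9 and 58.5%. Less the median of their eighth, the log2 values in library 21 were -0.23 for Rara (-0.55 before), -0.36 for Rxrb (-0.55 before), 0.10 for Rxra (-0.22 before) and 0.04 for Rarg (-0.14 before). For Rarg in library 20 the value was -0.99 (-0.95 before). The enzymes moved little by the same step: Aldh1a1 was at 1.90 and 3.24 in libraries 20 and 21, and Aldh1a3 at -3.28 and -2.96. Aldh1a7 had no stand-in.

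The difference between the shNF2 libraries is the comparison in which the genes were not chosen for opposite moves, although values of both libraries were known. With 1 library on each side it has no test, and only counting intervals are given. Aldh1a1 was 2.70-fold (2.59 to 2.81) as high in library 21 as in library 20, and Aldh1a7 2.59-fold (1.58 to 4.36). Rarg was 1.76-fold (1.48 to 2.09) as high in library 21. Rara stood at 0.711 (0.576 to 0.876) and Rxrb at 0.608 (0.535 to 0.691) of the level in library 20. Aldh1a3 at 1.23 (0.827 to 1.85) and Rxra at 0.898 (0.725 to 1.11) had intervals that include 1. Thus 5 of the 7 had an interval clear of 1, where 54.3% of all genes did, and nothing particular to these genes is read from that count. In size, Aldh1a1 was the 71st and Aldh1a7 the 95th highest of 12813 genes in library 21 over library 20, and 1.82% of all genes were at least 2-fold higher there.

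**Figure D3:**
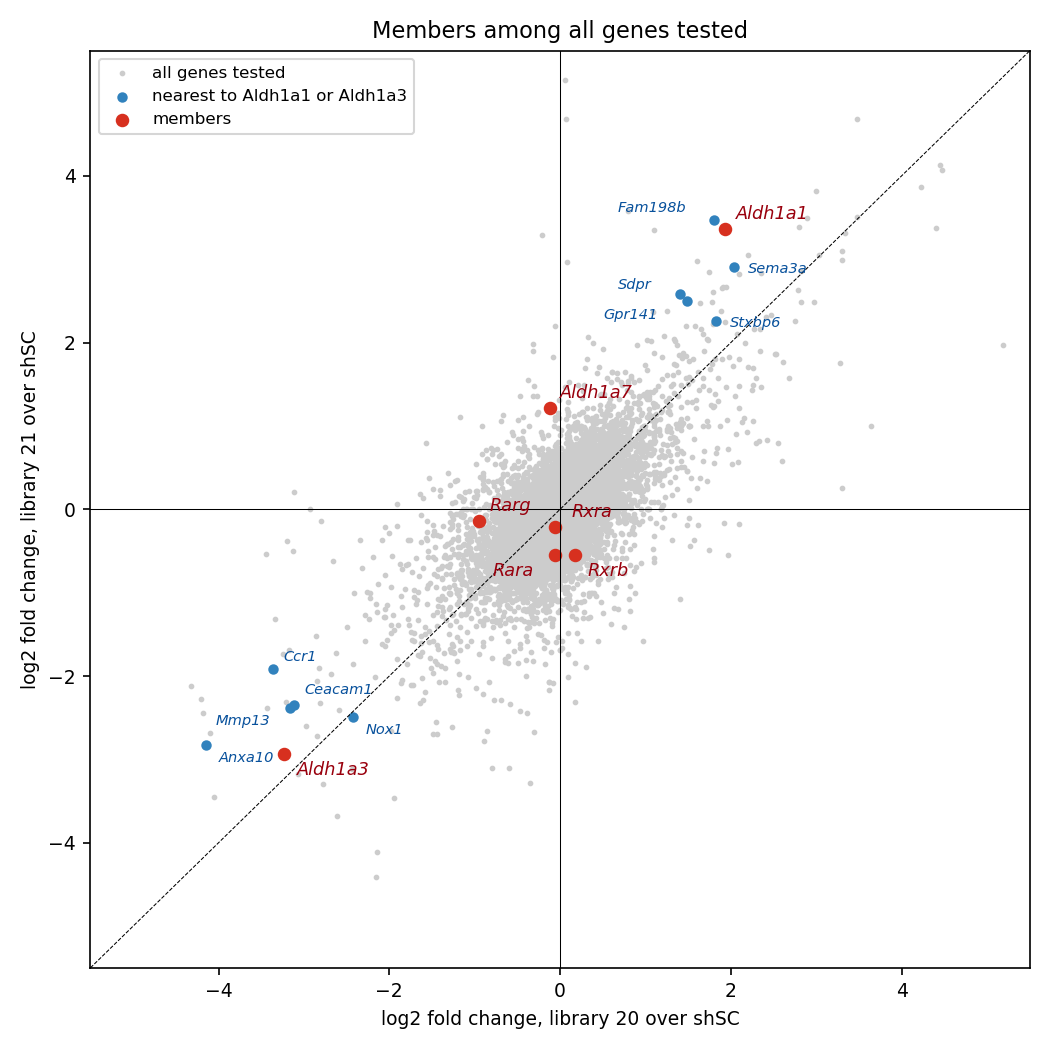
Log2 fold change of library 20 over shSC (x axis) and of library 21 over shSC (y axis) for the 12813 genes tested, with the 7 genes in red and the 10 nearest to Aldh1a1 or Aldh1a3 in blue; the dashed line marks equal values. Both axes share the shSC library. Aldh1a1 lies at 1.93 and 3.36, Aldh1a3 at -3.23 and -2.93, and the receptors near the centre.

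The genes whose values were most like those of Aldh1a1 over the 3 libraries, by distance in the pair of log2 fold changes, were Fam198b (distance 0.17 in log2 units), Sema3a (0.47), Sdpr (0.94), Gpr141 (0.97) and Stxbp6 (1.11). Fam198b had 247 and 787 scaled counts in libraries 20 and 21, against 70.1 in shSC, and like Aldh1a1 was highest in library 21. Sema3a, a secreted axon guidance cue, had 190 and 350 scaled counts in libraries 20 and 21, against 45.8 in shSC. Nearest to Aldh1a3 were Mmp13 (0.55), Ceacam1 (0.60), Nox1 (0.92), Anxa10 (0.92) and Ccr1 (1.02). Ceacam1, a cell adhesion gene, had 106 and 181 scaled counts in libraries 20 and 21, against 923 in shSC. With 3 libraries such likeness is a description only.

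Around these genes, 123 other genes of retinoid handling, retinoid signalling and the aldehyde dehydrogenase family were listed by role, of which 78 were tested. In the limma fit 0 of the 78 passed an adjusted p under 0.05, where 0.843% of all genes did. At an unadjusted p under 0.05 there were 13, where 9.27% of all genes lay. edgeR called 0 and DESeq2 called 1, Cd38. The median log2 fold change of the 78 was -0.01, against 0.00 for all genes, and 31 were above shSC in both libraries and 31 below in both.

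Upstream, the enzymes that supply or remove retinaldehyde were mostly a little above shSC. Of 19 listed, 11 were tested, 0 passed (2 at an unadjusted p under 0.05), 7 were above shSC in both libraries and 2 below in both, with a median log2 fold change of 0.26. Above shSC in both libraries were 36.1% of all genes. Rdh10, the main retinol dehydrogenase of the embryo, had 2924 and 2302 scaled counts in libraries 20 and 21, against 2126 in shSC. Adh7, an alcohol dehydrogenase that can oxidise retinol, had 4063 and 3189 scaled counts in libraries 20 and 21, against 2532 in shSC, which did not pass (fitted log2 fold change 0.51 ± 0.22, SE; adjusted p = 0.50 in limma). Dhrs9 and Rdh13 had log2 fold changes of 0.40 and 0.30.

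Dhrs3, which reduces retinaldehyde back to retinol and is induced by retinoic acid, lay on the other side. It had 239.5 and 355 scaled counts in libraries 20 and 21, against 608 in shSC. Both shNF2 libraries were below shSC, by -1.06 ± 0.30 in the fit (log2, SE; adjusted p = 0.166 in limma), and the difference did not pass.

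Of 19 carrier, uptake and storage genes 8 were tested, 0 passed (2 at an unadjusted p under 0.05) and the median log2 fold change was -0.06. Fabp5, a lipid carrier that also binds retinoic acid, had 7829 and 7401 scaled counts in libraries 20 and 21, against 7678 in shSC. Crabp2, which hands retinoic acid to RARs, had 185 and 232 scaled counts in libraries 20 and 21, against 139 in shSC (log2 fold change 0.57, limma adjusted p = 0.647). Rbp2, a retinol carrier best known from the gut, had 81.6 and 55.4 scaled counts in libraries 20 and 21, against 174 in shSC (-1.36, limma adjusted p = 0.17). Dgat1 and Scarb1 had log2 fold changes of -0.25 and 0.22. Lrat, which stores retinol as esters, was not analysed here.

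Of the retinoic acid-degrading enzymes, Cyp26b1 had 5 and 10 reads in libraries 20 and 21, against 7 in shSC, a level under the filter for testing, and Cyp26a1 was not analysed here. Nor were the family relatives Aldh1a2 and Rxrg. At these counts a difference in Cyp26b1 was not detectable.

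The list of retinoic acid responsive genes had 41 names, of which 22 were tested. In the limma fit 0 passed and 7 had an unadjusted p under 0.05, where 9.27% of all genes did. In this list 14 genes were below shSC in both libraries and 5 above in both. Below shSC in both libraries were 35.8% of all genes. Over the 22 genes the median of the fitted log2 fold changes was -0.35 (-0.59 for library 20 alone, -0.32 for library 21 alone), against 0.00 for all genes. The list came from general knowledge of other tissues, so not all of its genes need respond in AB12 cells, and it includes Crabp2 and Dhrs3 from above.

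Cd38, a NAD-consuming surface enzyme induced by retinoic acid in myeloid cells, had 277 and 302 scaled counts in libraries 20 and 21, against 682 in shSC. The fitted log2 difference was -1.23 ± 0.26 (SE; limma adjusted p = 0.0511). DESeq2 called it (adjusted p = 0.0439), as did limma when low genes were kept in (adjusted p = 0.0099). Tshz1, a zinc finger factor, had 437 and 464 scaled counts in libraries 20 and 21, against 909 in shSC, with -1.01 ± 0.25 (SE; limma adjusted p = 0.0926), and was called by limma when low genes were kept in (adjusted p = 0.0301). Gprc5a, a receptor gene first found as induced by retinoic acid, had 1558 and 2331 scaled counts in libraries 20 and 21, against 3246 in shSC, with -0.77 ± 0.25 (SE; limma adjusted p = 0.276). The shNF2 libraries lay below shSC for each of these 3 genes.

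**Figure D4:**
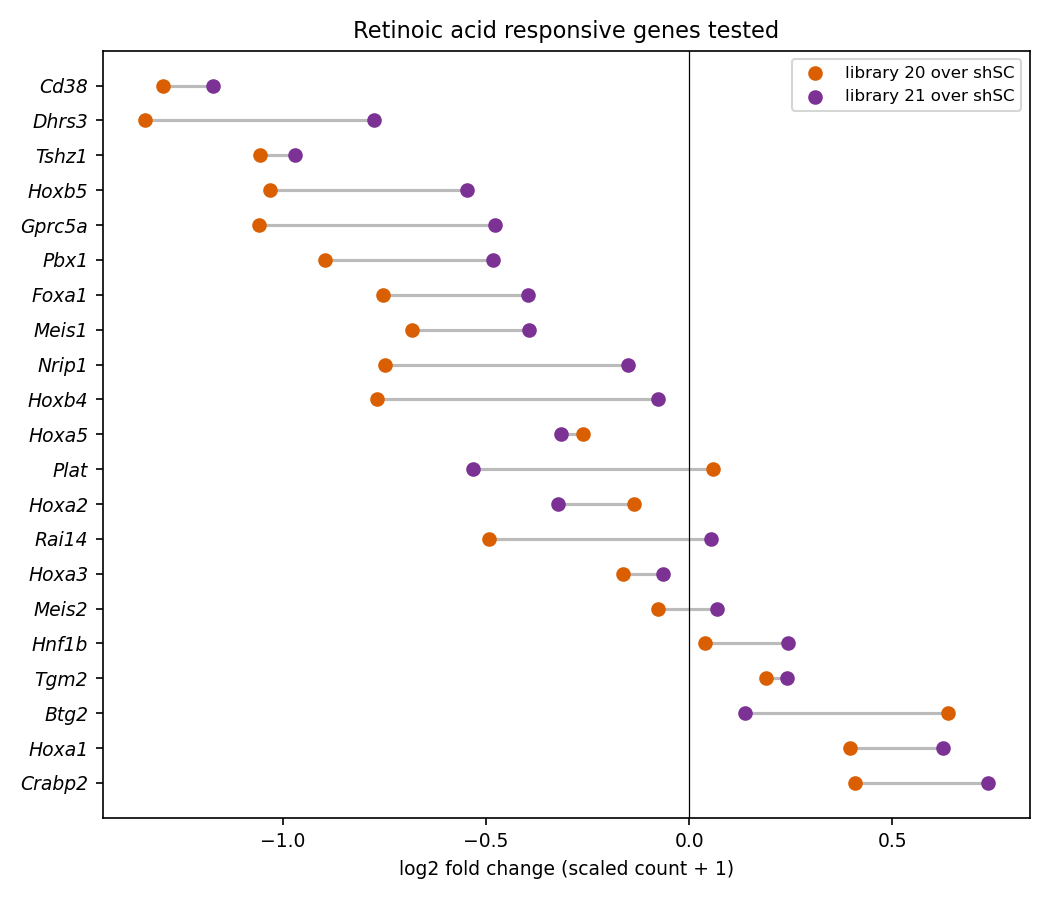
Log2 fold change over shSC, on the scale of scaled count + 1, of 21 of the 22 retinoic acid responsive genes tested, with library 20 in orange and library 21 in purple. In both libraries 13 of the genes shown lie below 0 and 5 above; Cd38 and Tshz1 lie near -1 in each.

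Among 10 tested receptors that pair with RXR, 0 passed and 2 had an unadjusted p under 0.05, where 9.27% of all genes did. The median log2 fold change was -0.46, against 0.00 for all genes, with 6 below shSC in both libraries, where 35.8% of all genes were, and 3 above in both, where 36.1% were. Nr1h2, an oxysterol receptor, had 325 and 239.1 scaled counts in libraries 20 and 21, against 431 in shSC, with -0.63 ± 0.29 (SE; limma adjusted p = 0.539). Thra and Ppard, receptors for thyroid hormone and fatty acids, had log2 fold changes of -0.61 and -0.50, and Nr1h4, the bile acid receptor, 0.43. The ends of the range were low-count genes, named after their values were seen. Pparg had 14 and 13 reads in libraries 20 and 21, against 57 in shSC, with ratios of 0.264 (95% counting interval 0.136 to 0.480) and 0.228 (0.114 to 0.421). Vdr had 15 and 13 reads in libraries 20 and 21, against 3 in shSC, with ratios of 5.37 (1.52 to 28.9) and 4.33 (1.19 to 23.7).

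All 18 coregulator genes were tested, 0 passed in limma and 0 had an unadjusted p under 0.05, and the median was -0.04. Ncoa1, a coactivator, had a log2 fold change of 0.59. Kat2b, an acetyltransferase, and Nrip1, a ligand-dependent corepressor, had 0.49 and -0.45.

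Of the other aldehyde dehydrogenases 13 were tested, 0 passed (2 at an unadjusted p under 0.05), and 9 were above shSC in both libraries, where 36.1% of all genes were, and 1 below in both, where 35.8% were. Their median log2 fold change was 0.20, against 0.00 for all genes. Aldh4a1, a mitochondrial enzyme of proline breakdown, had 126 and 115 scaled counts in libraries 20 and 21, against 60.4 in shSC, with 0.98 ± 0.36 (SE; limma adjusted p = 0.359). Aldh1l1, of folate metabolism, had 178 and 102 scaled counts in libraries 20 and 21, against 73.0 in shSC, with 0.87 ± 0.39. Aldh3b1 and Aldh5a1 had log2 fold changes of 0.63 and 0.54. The fitted values of the 13 ran from -0.41 to 0.98.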

How the data were processed

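The deposited table holds gene signal that its name calls scaled counts. The submitters' processing notes list STAR 2.5.0a and cutadapt 1.6, HTSeq 0.5.3, DESeq 1.22.1 and the mouse build mm10, without saying what each did. Per the labels' protocols, polyA RNA and a stranded kit were used; the sources used here do not say whether counting used strand. From the deposited signal, whole reads were recovered by 1 factor per library (100% of values whole within 0.001 reads), and 4 rows naming no gene, with 48.7%, 47.7% and 48.6% of reads in library 20, library 21 and shSC, were left out.

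The members and gene lists were chosen with earlier results of these data known. The shNF2 libraries were set against shSC on log2(scaled count + 1) with limma 3.58.1 (R 4.3.3, trended variance). Genes averaging 10 or more were kept (12813), p-values were adjusted over all of them by Benjamini-Hochberg, and the threshold was 0.05. This scale understates the change of low genes. Only 1 residual degree of freedom, between libraries 20 and 21, informs the spread, beside 11.9 prior degrees of freedom from all genes, and the lone shSC library is taken to vary like the shNF2 libraries. With 2 libraries on one side and 1 on the other, the smallest p of an exact permutation test is 1 in 3. The recovered reads were also analysed with edgeR 4.0.16 (quasi-likelihood) and DESeq2 1.42.0. Levels have exact Poisson intervals, and ratios exact conditional binomial intervals, at 95%, which cover counting error only. Reads were not tagged with molecular identifiers, so they are not independent molecules. The scripts were tested on simulated data.

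Genes named were all members found, Nf2, and per list any gene that passed, then those with the largest fitted change at a mean of at least 100 until 4 were named, plus 10 defining pathway genes; some of these are not reported here. For likeness, the 5 nearest genes with a mean of at least 100 were taken, skipping unnamed gene models. GC was taken from human protein-coding transcripts (GENCODE v29, matched by current or older symbol, median per gene) (10359 tested genes, 80.8%), a correction chosen after seeing the data. The other alternatives were pseudocounts, filters, scalings, variance models and each shNF2 library left out.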

Additional observations from a re-analysis of the deposited data

How the results depend on the processing

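Without the filter on low values limma called 232 genes (110 higher, 122 lower), in place of 108. Under quantile normalization limma called 0 (0 higher, 0 lower), with 882 at an unadjusted p under 0.05. With an untrended variance it called 0 (0 higher, 0 lower), with 1036 such genes. edgeR called 29 higher and 52 lower in place of 53 and 55. Of the pathway genes 2 passed without the filter (2 lower, Cd38 and Tshz1) and 1 with DESeq2 (1 lower, Cd38), in place of 0. The fitted log2 fold change of Rxra was 0.04 after GC adjustment, in place of -0.14. With either shNF2 library left out, the total Aldh1a fold ran from 2.47 to 6.60, the log2 fold change of Aldh1a1 from 1.93 to 3.36 and that of Aldh1a3 from -3.23 to -2.93; these are values with no test, since no residual degree of freedom remains, and counts of genes passing could not be had. Under TMM scaling, scaling by total reads, human coding length and without Aldh1a7 the total fold was 4.50, 4.95, 4.57 and 4.59, against 4.54. No paired analysis was possible because there was 1 shSC library and its title carries no replicate number. A single shSC library limits every comparison with it, and low counts limit Aldh1a7, Cyp26b1, Pparg and Vdr.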
